A study of Mus musculus with 6 samples.

Results

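The core contractile apparatus of smooth muscle was followed here through 10 genes, namely Acta2, Actg2, Myh11, Myl9, Mylk, Tagln, Cnn1, Smtn, Lmod1 and Des. They were chosen by gene symbol as the differentiated smooth muscle actins, myosin chains and their regulators, and all 10 are among the 22956 genes of the count table. The samples were 6 libraries from the aorta of C57B6 mice, with smooth muscle cell as the labelled cell type, at an age of 30 weeks and after 20 weeks on a western diet. The 3 WT samples are labelled WT/mTmG/ Myh11ERT2, and the 3 knockout samples miR-21fl/flmTmG/Myh11ERT2. Both groups therefore carried mTmG, a reporter that changes colour where Cre recombinase has acted, and the inducible Cre driven by the Myh11 promoter. They differed by the floxed miR-21 gene, which that Cre can delete only in cells that use the promoter. The level of miR-21 itself was not analysed here, so the deletion is known from the labels alone, and whether or when the Cre was induced is not stated in the labels. The Cre is driven by the promoter of one of the 10 genes, and the sources used here do not give whether the transgene carries Myh11 sequence that would be counted as Myh11. Whether the replicates are separate animals is not given either, so the p-values measure the spread between these samples alone, and that spread may be technical.

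Smooth muscle shortens when myosin filaments pull on actin filaments. Calcium and calmodulin switch on myosin light chain kinase, the kinase phosphorylates the regulatory light chain, and myosin phosphatase reverses this. Serum response factor (SRF), with its coactivator myocardin, switches on many of these genes through CArG boxes in their promoters. In atherosclerosis, smooth muscle cells of the vessel wall can lose the products of these genes as they leave the contractile state, and the 10 genes are therefore in common use as markers of that state.

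Sequences bearing on direct regulation are shown first. miR-21-5p pairs with messages through its seed, bases 2 to 8, given here in capitals (chromosome 11, 86584120 to 86584141, minus strand, GRCm38.p6, from RefSeq).
mmu-miR-21a-5p: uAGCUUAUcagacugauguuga
The matches searched for in 3′ untranslated regions were ATAAGCT, which pairs with the whole seed, TAAGCTA, which drops the first letter of the former and adds an A at the end, and TAAGCT, the 6 bases they share. None of the 3 was found in the 3′ untranslated region of any of the 10 genes, whose lengths ran from 80 bases in Actg2 to 1957 bases in Lmod1 (1 principal transcript a gene). TAAGCT was also absent from the 3′ untranslated regions annotated for the other coding transcripts of these genes. Of 15016 genes searched in the same way, 7.05% held ATAAGCT, 6.73% held TAAGCTA and 23.8% held TAAGCT. No match says only that these letters are not in these regions.

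CArG boxes were searched in the RefSeq windows from 250 bases before to 50 after the start site, which were at hand for 7 of the 10 genes (Des, Lmod1, Myl9, Cnn1, Smtn, Mylk and Acta2). Only the windows of Myl9 and Acta2 held a box. Sequence outside the windows was not searched, so the other genes may hold boxes elsewhere. The windows of Mylk and Smtn lie inside the annotated genes and not at their outer starts. The exact box, 6 A or T bases between a pair of C and a pair of G, lies once in Myl9 and is held by 1.63% of all 32851 windows. Allowing 1 other base in the core, 9.98% of all windows held a box, Myl9 gained a further one, and Acta2 had a pair. The box reads as a box on either strand, so one search covers both. Each is printed in capitals with its flanks, because these are the letters through which SRF is known to act on this gene group.
Myl9, first base of the box at -161 from the start site, exact box: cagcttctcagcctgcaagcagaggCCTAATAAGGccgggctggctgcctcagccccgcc
Myl9, at -99, 1 other base: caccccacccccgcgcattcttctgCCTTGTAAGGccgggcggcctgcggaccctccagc
Acta2, at -84, 1 other base: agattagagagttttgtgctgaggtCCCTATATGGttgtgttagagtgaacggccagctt
Acta2, at -34, 1 other base: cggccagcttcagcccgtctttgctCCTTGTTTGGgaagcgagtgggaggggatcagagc
The printed Myl9 stretches lie on chromosome 2 from 156775278 to 156775337 and from 156775340 to 156775399, plus strand. Those of Acta2 lie on chromosome 19 from 34255423 to 34255482 and from 34255373 to 34255432, minus strand (all GRCm38.p6). A match is a description of the letters and not a bound site.

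Library totals ran from 37787465 to 154384307 estimated counts, and every one of the 10 genes had at least 3644 counts in every library, so that counting error was small beside the differences between libraries. The largest deposited values carry 3 significant digits, which touched Acta2 in WT 3 and knockout 3 and Myh11 in WT 3 by at most 0.472% of the value. Of all counts, the 10 genes together held 2.71% in WT 1, 4.16% in WT 2 and 3.41% in WT 3, against 3.18%, 4.21% and 3.96% in knockout 1, 2 and 3. The groups overlapped in this share, with a WT mean of 3.43 ± 0.723% and a knockout mean of 3.78 ± 0.537% (SD, n = 3 each).

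Genes listed as markers of other cell types were measured beside these genes. The summed level of 8 fibroblast markers was 9593, 4814 and 8757 CPM (counts scaled to the library total with TMM factors) in WT 1, 2 and 3, and 8944, 2915 and 3664 CPM in knockout 1, 2 and 3. Nearly all of this sum was Lum, Col1a1 and Dcn. The highest values of the rest ran from 5.27 CPM for Pi16 to 303 CPM for Ly6a. Bulk libraries do not say which cells these messages came from, so the sum is no measure of fibroblast content. Fold changes of 7 of the 8 lay below 0, with 0 called, where 49.4% of all genes tested lay above 0. The 6 endothelial markers summed to 60.9 to 67.2 CPM in WT and 60.04 to 69.8 CPM in the knockout, nearly all of it Pecam1, while Cdh5 and Kdr were under 1 CPM in every library. The 6 macrophage markers summed to 20.7, 3.67 and 5.04 CPM in WT 1, 2 and 3. In knockout 1, 2 and 3 their sum was 22.1, 13.3 and 4.05 CPM, with Adgre1 at or near 0 throughout. Lyz2 was the largest part in WT 1 and knockout 1, at 12.6 CPM in each. The 4 lymphocyte markers were under 1 CPM throughout. The 4 cardiac markers in the table summed to 14.6 to 25.8 CPM in WT and 9.50 to 33.8 CPM in the knockout, mostly Tnnt2, and the 4 skeletal markers to 9.47 to 12.1 and 9.39 to 14.6 CPM. The 4 Schwann markers summed to 5.33 to 7.75 and 2.53 to 10.002 CPM, and the 2 adipocyte markers in the table, Fabp4 and Ucp1, to 37.5 to 50.1 and 37.4 to 53.2 CPM, nearly all Fabp4. Adipoq, Plin1, Lep, Cfd, Myl7, Nppa, Myh1 and Myh4 were not analysed here. Of the markers tested, 4 endothelial ones had fold changes above 0 and 2 below, and 5 macrophage ones above and 0 below. For cardiac and for skeletal markers 3 were above and 1 below, for Schwann markers 1 and 1, and for adipocyte markers 0 and 1. In each list 0 were called.

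Levels of the 10 genes were compared with each other per kilobase of the principal transcript. Acta2, smooth muscle alpha-actin, led with 6575 ± 1157 CPM per kb (mean ± SD over all 6 libraries). It was followed by Myl9, the regulatory light chain, with 3306 ± 497 CPM per kb and by Tagln, the actin-binding protein transgelin, with 2761 ± 326 CPM per kb. Myh11, the smooth muscle myosin heavy chain, had 1187 ± 223 CPM per kb. Cnn1, calponin, had 823 ± 155 CPM per kb and Smtn, smoothelin, 789.6 ± 113.7 CPM per kb. Below them lay Actg2, smooth muscle gamma-actin, with 255 ± 61.4 CPM per kb, Mylk, the light chain kinase, with 169.8 ± 27.3 CPM per kb, Lmod1, leiomodin, an actin filament nucleator, with 107 ± 12.03 CPM per kb, and Des, the intermediate filament protein desmin, with 54.6 ± 12.5 CPM per kb. The order was the same with the length of all exons of a gene in place of the principal transcript.

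Neighbours in this order were separated in unequal degree. Ranges over the libraries did not overlap between Acta2 and Myl9, Tagln and Myh11, Smtn and Actg2, Mylk and Lmod1, or Lmod1 and Des. They overlapped between Myl9 and Tagln, Myh11 and Cnn1, and Actg2 and Mylk, although the first of each pair was above the second in 6 of 6 libraries. Cnn1 lay above Smtn in 4 of 6 libraries, so these neighbours did not differ beyond their spread. The mean level of Acta2 was 24.5 times that of Actg2 in WT and 27.1 times in the knockout. It was 97.8 times that of Des in WT and 151 times in the knockout.

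**Figure D1:**
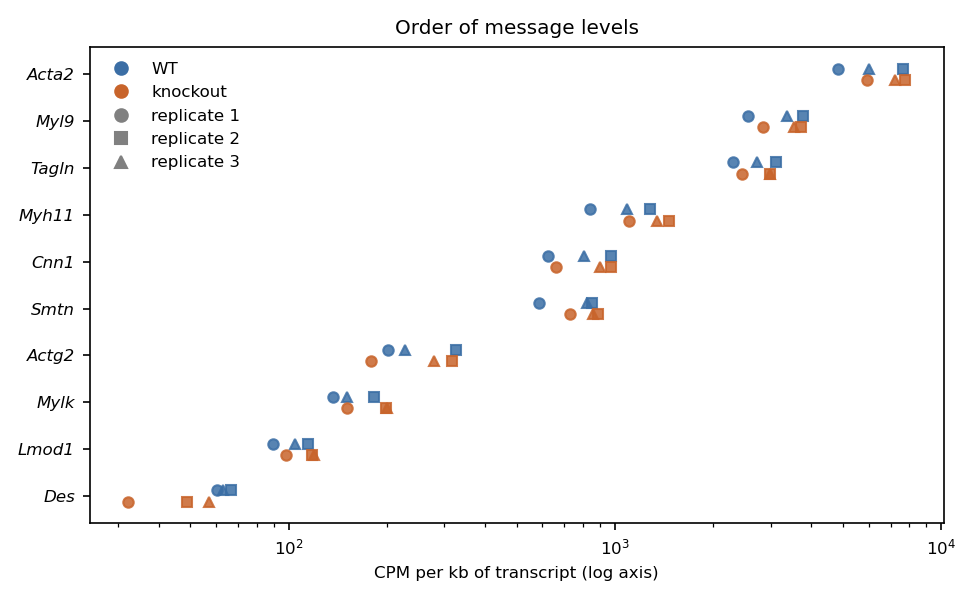
Message level of each gene in CPM per kb of its principal transcript (horizontal log axis), genes ordered from the highest mean to the lowest. Colours mark WT and knockout, symbols the replicate number, and each symbol is 1 library. Acta2 lies at the top with 6575 CPM per kb on average and Des at the bottom with 54.6, and the knockout values of Des lie to the left of its WT values.

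Between knockout and WT, 9 of the 10 genes had fold changes above 0 and Des had one below, and 0 passed the test. The smallest adjusted p among them was 0.835 (edgeR's quasi-likelihood test, Benjamini-Hochberg over 16654 genes), and 0% of all genes passed at 0.05. At an unadjusted p under 0.05, 0 of the 10 were higher and 0 lower, against 3.95% and 2.01% of all genes tested, or 5.96% in either direction. For 0 of the 10 did all knockout libraries lie above all WT libraries, which held for 6.53% of all genes. With DESeq2's Wald test 0 of the 10 passed as well (smallest adjusted p 0.607), where 0.447% of the genes with an adjusted p did. The median log2 fold change of the 10 was 0.10, beside -0.0022 over all genes tested, and 49.4% of all genes tested had a fold change above 0. The standard errors of the 10 genes had a median of 0.19 on the log2 scale, against 0.14 over all genes. In bulk samples such as these, fewer smooth muscle cells and less RNA per cell cannot be told apart.

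Among single libraries left out, the count of 9 changed most without WT 1, the library in which 8 of the 10 genes were lowest. The share of all genes that were lowest in WT 1 is not given here. Without WT 1, 4 of the 10 had fold changes above 0 and the median was -0.04. Without WT 1 and knockout 1 together, an alternative chosen after seeing the data, 9 of 10 were above 0, the median was 0.09 and 0 passed. Without knockout 2 the count was 6, and without WT 2 the count was 9 with a median of 0.23.

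**Figure D2:**
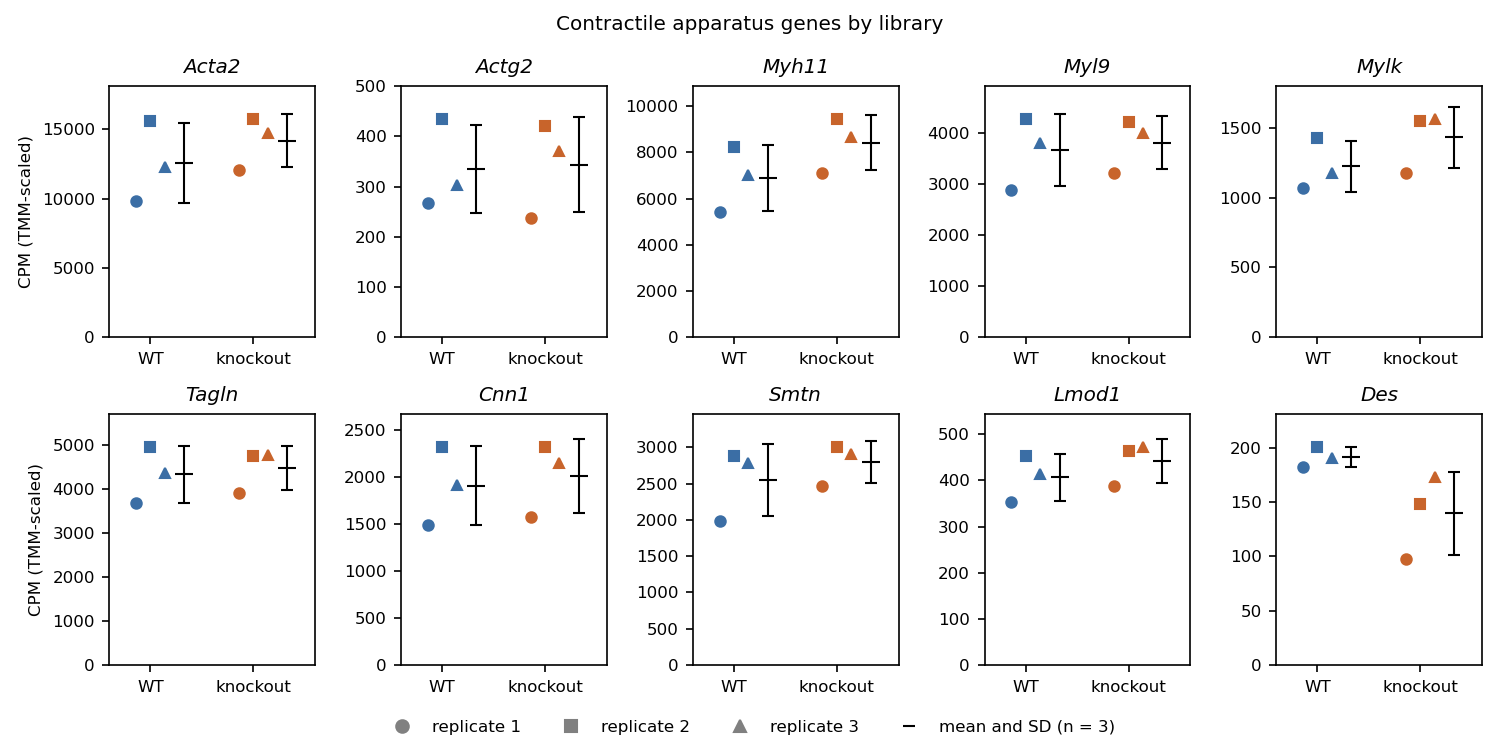
TMM-scaled CPM of the 10 genes in each library, WT and knockout side by side, with a symbol for each replicate number and the mean and SD of 3 libraries as a black bar. Each vertical axis starts at 0. WT and knockout values overlap for 9 genes, and for Des the 3 knockout values lie below the 3 WT values.

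Among the actins, Acta2 (chromosome 19, 34241090 to 34255337, mm10 as in the deposited table) had 9861, 15575 and 12273 CPM in WT 1, 2 and 3 and 12063, 15772 and 14741 CPM in knockout 1, 2 and 3. WT 1 was the lowest library, WT 2 lay beside the higher knockout libraries, and the groups overlapped. Its log2 fold change was 0.18 ± 0.20 (SE), with a 95% interval of -0.31 to 0.66 (edgeR adjusted p = 0.911). It was 0.35 without WT 2 and 0.03 without WT 1.

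Actg2 (chromosome 6, 83512905 to 83536266), the actin more typical of gut and bladder muscle, had 268, 435 and 304 CPM in WT 1, 2 and 3 and 238, 422 and 371 CPM in knockout 1, 2 and 3. Knockout 1 was the lowest and WT 2 the highest library. The log2 fold change was 0.03 ± 0.26 (SE), interval -0.59 to 0.66, and its sign was not stable, at -0.14 without knockout 2 and 0.26 without WT 2. Actg2 stood at 2.72%, 2.79% and 2.48% of the Acta2 CPM in WT and at 1.97%, 2.67% and 2.51% in the knockout, which is 2.66 ± 0.166% against 2.39 ± 0.368% (SD, n = 3 each; exact permutation p = 0.3, two-sided, and 0.45 after Benjamini-Hochberg adjustment over 3 ratios). These ratios were chosen after the values had been seen, and 3 against 3 cannot go below 0.1.

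The actins of the cytoskeleton, Actb and Actg1, had log2 fold changes of -0.03 ± 0.14 and -0.07 ± 0.08 (SE). Acta1, the skeletal actin, was scarce at 1.17 to 4.23 CPM over the 6 libraries. Actc1, the cardiac actin, was as scarce, with 1.503, 1.40 and 0.974 CPM in WT 1, 2 and 3 and 1.82, 4.74 and 3.80 CPM in knockout 1, 2 and 3. All knockout values of Actc1 lay above all WT values, with a log2 fold change of 1.44 ± 0.38 (SE), and it did not pass the test (edgeR unadjusted p = 0.00656, adjusted p = 0.780). Of the 50-base stretches of the principal Acta2 transcript, 0.352% occur in another gene, each of them in Actg1, and 0 of those of Actg2 do. The other actins were not searched in this way.

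Of the myosin genes, Myh11 (chromosome 16, 14194527 to 14291409) had 5427, 8244 and 7013 CPM in WT 1, 2 and 3 and 7110, 9458 and 8671 CPM in knockout 1, 2 and 3. WT 1 was the lowest library and knockout 2 the highest, and WT 2 lay above knockout 1, so the groups overlapped. Its log2 fold change of 0.29 ± 0.19 (SE) was the highest of the 10 genes, with an interval of -0.17 to 0.74 (edgeR adjusted p = 0.864). It was 0.14 without WT 1 and 0.43 without WT 2.

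Myl9 (chromosome 2, 156775420 to 156781659) had 2887, 4271 and 3799 CPM in WT 1, 2 and 3 and 3215, 4204 and 3997 CPM in knockout 1, 2 and 3. The groups overlapped almost wholly. The log2 fold change was 0.06 ± 0.18 (SE), interval -0.37 to 0.48, and it was -0.08 without WT 1 and 0.18 without WT 2.

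Mylk (chromosome 16, 34745210 to 35002421) had 1070 CPM in WT 1, 1427 in WT 2 and 1178 in WT 3, and 1179, 1552 and 1565 CPM in knockout 1, 2 and 3. Knockout 2 and 3 were the highest libraries, and knockout 1 lay level with WT 3. The log2 fold change was 0.23 ± 0.16 (SE), interval -0.15 to 0.60 (edgeR adjusted p = 0.866), with 0.14 without WT 1 and 0.35 without WT 2.

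Myh10, the non-muscle myosin heavy chain that smooth muscle also uses, is no member of the 10. It had 434, 576 and 460 CPM in WT 1, 2 and 3 and 624, 671 and 606 CPM in knockout 1, 2 and 3, all knockout values above all WT values. Its log2 fold change was 0.37 ± 0.12 (SE; edgeR unadjusted p = 0.0188, adjusted p = 0.793). The Myh11 CPM was 14.03 ± 1.40 times that of Myh10 in WT and 13.3 ± 1.63 times in the knockout (SD, n = 3 each; exact permutation p = 0.6, two-sided, also 0.6 after adjustment over the 3 ratios).

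The actin-binding genes overlapped between the groups. Tagln (chromosome 9, 45929619 to 45936059) had 3672, 4961 and 4362 CPM in WT 1, 2 and 3 and 3907, 4756 and 4771 CPM in knockout 1, 2 and 3, a log2 fold change of 0.05 ± 0.15 (SE). Cnn1 (chromosome 9, 22099216 to 22109631) had 1484, 2322 and 1916 CPM in WT and 1568, 2318 and 2151 CPM in the knockout, a log2 fold change of 0.08 ± 0.21 (SE). For both, WT 1 was the lowest library and WT 2 the highest. Leaving out WT 1 gave -0.06 for Tagln and -0.07 for Cnn1, and leaving out WT 2 gave 0.15 and 0.24.

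Smtn (chromosome 11, 3517523 to 3540613) had 1985, 2883 and 2782 CPM in WT 1, 2 and 3 and 2472, 3012 and 2909 CPM in knockout 1, 2 and 3. WT 1 stood below the other 5 libraries, and the log2 fold change of 0.13 ± 0.17 (SE) was -0.02 without it. Lmod1 (chromosome 1, 135324807 to 135368066) had 353, 452 and 414 CPM in WT and 388, 464 and 473 CPM in the knockout, a log2 fold change of 0.12 ± 0.12 (SE), which was 0.03 without WT 1 and 0.20 without WT 2 and without knockout 1. Its standard error was the smallest of the 10 genes.

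Antisense genes overlap some of the exons of these and other members. The antisense gene Gm48529 shares 44.5% of the 50-base stretches of the Tagln transcript and Gm11946 13.2% of those of Smtn, on the opposite strand, and E130310I04Rik and Gm21691 share 2.47% and 1.81% of those of Mylk. The protein-coding gene Pcsk7, also on the opposite strand, shares 3.82% of those of Tagln and was listed at 28.8 to 32.4 CPM. Whether strand was used in counting is not stated in the labels, so reads of such pairs may not be told apart. Gm11946 itself was listed at 13.4 to 20.4 CPM, far below Smtn, and Gm48529, E130310I04Rik and Gm21691 were not analysed here.

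Des, the desmin gene (chromosome 1, 75360329 to 75368580), was the one gene of the 10 that lay lower in the knockout. It had 183, 201 and 190 CPM in WT 1, 2 and 3 and 97.7, 148 and 173 CPM in knockout 1, 2 and 3. All knockout libraries lay below all WT libraries, which held for 5.59% of all genes tested. The WT mean was 191 ± 9.29 CPM and that of the knockout 139.6 ± 38.4 CPM (SD, n = 3 each), so the knockout libraries were spread more widely, with knockout 1 the lowest. The log2 fold change was -0.45 ± 0.20 (SE), a fold of 0.730, with an interval of -0.92 to 0.02. It did not pass the test (edgeR unadjusted p = 0.0563, adjusted p = 0.835), and its adjusted p ran from 0.329 to 1.00 over the alternatives. Without knockout 1 the value was -0.26 and without knockout 3 it was -0.64.

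Desmin is an intermediate filament that ties the contractile apparatus to dense bodies and the cell membrane. The other intermediate filament genes of muscle that were listed, Vim and Synm, had log2 fold changes of 0.09 ± 0.12 and 0.03 ± 0.13 (SE). The antisense gene Gm15179, not analysed here, shares 5.81% of the 50-base stretches of the Des transcript.

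**Figure D3:**
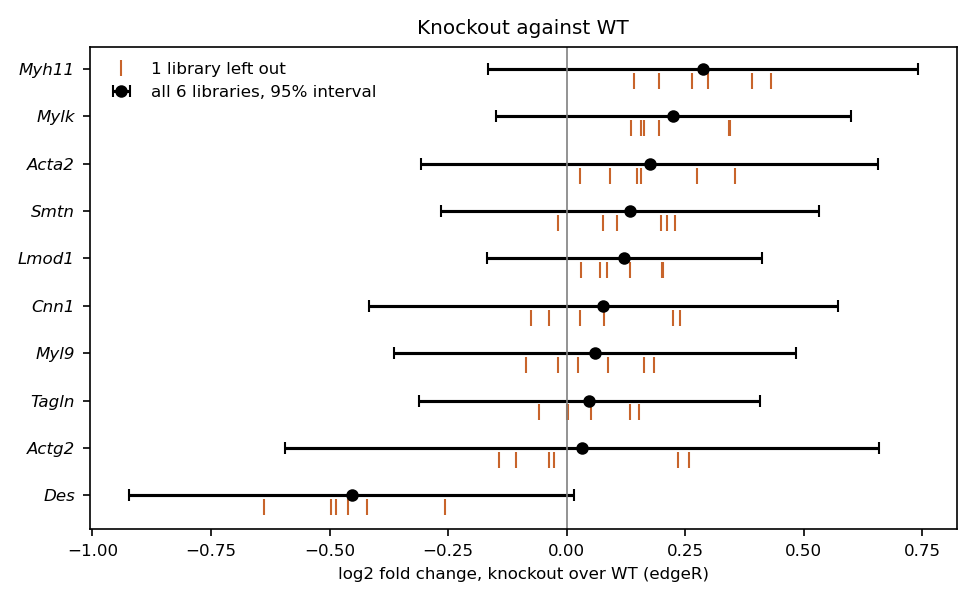
Log2 fold change, knockout over WT, of each gene from edgeR, with its 95% interval (black), and the values with 1 library left out (orange ticks). Every interval includes 0. The ticks of Des stay below 0, between -0.64 and -0.26, while those of Smtn, Cnn1, Myl9, Tagln and Actg2 lie on both sides of 0.

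The 10 genes varied together from library to library more than they differed between the groups, with Des apart. Each gene's log2 CPM (with 0.1 CPM added) was set against its own mean over the 6 libraries. The mean of the 9 genes other than Des was then -0.35 in WT 1, 0.20 in WT 2 and -0.05 in WT 3, beside -0.19, 0.23 and 0.16 for the knockout libraries in the same order. All 9 were below their mean in WT 1 and knockout 1, and above it in WT 2, knockout 2 and knockout 3. In 7 of the 9, WT 1 and knockout 1 were the lowest pair of libraries. The shares of all genes with these patterns are not given here. Over all genes tested, deviations from the group means correlated at 0.32 between WT 1 and knockout 1. They correlated at 0.36 between WT 2 and knockout 2, at -0.30 between WT 1 and knockout 2, and at -0.39 between WT 2 and knockout 1. The pattern is therefore not shown to be particular to the contractile genes. The sum of the fibroblast markers, given above, was highest in WT 1, knockout 1 and WT 3 and lowest in knockout 2. Of these markers Pi16, Dpt and Serpinf1 were instead lowest in WT 2, at 1.06, 5.11 and 10.7 CPM. The sum of the macrophage markers was also highest in knockout 1 and WT 1, with knockout 2 next. The part of fibroblast or macrophage markers in the contractile levels was not tested.

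Once the mean of the other members was taken off, the remaining SD over the 6 libraries was between 0.05 (Myl9) and 0.17 (Actg2) for the 9 genes and 0.40 for Des. Before that step the SD was 0.17 (Lmod1) to 0.36 (Actg2) for the 9 and 0.38 for Des, against a median of 0.11 over the 3746 genes with a mean of at least 50 CPM. These are descriptions over 6 libraries that share their depth and scaling across genes.

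Relative to the mean of the 9 other genes, Des was at 0.53, 0.12 and 0.29 in WT 1, 2 and 3 and at -0.53, -0.35 and -0.06 in knockout 1, 2 and 3, on the log2 scale. All knockout values lay below all WT values, as for 2.3% of all genes set against the same mean. As a share of the Acta2 CPM, Des stood at 1.85% in WT 1, 1.29% in WT 2 and 1.55% in WT 3, and at 0.810%, 0.939% and 1.17% in the knockout. The means were 1.56 ± 0.281% and 0.975 ± 0.184% (SD, n = 3 each; exact permutation p = 0.1, two-sided, which is as low as 3 against 3 can go, and 0.3 after adjustment over 3 ratios). As said above, the ratios were chosen after the values had been seen. The adjustment does not cover that choice, so this p is no separate support for a lower Des.

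Myh11, set against the mean of the other 8 without Des, was at -0.14, -0.07 and -0.06 in WT and at 0.12, 0.11 and 0.04 in the knockout, again without overlap. Its difference of 0.18 was smaller than that of Des, and 1.06% of all genes lay wholly higher in the knockout against the mean of the 9. Myl9 lay wholly lower by this measure by a narrow margin, at -0.0046, 0.02 and 0.10 in the WT libraries against -0.0082, -0.05 and -0.06 in those of the knockout. The other 7 overlapped. This relative measure was also chosen after the values had been seen.

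**Figure D4:**
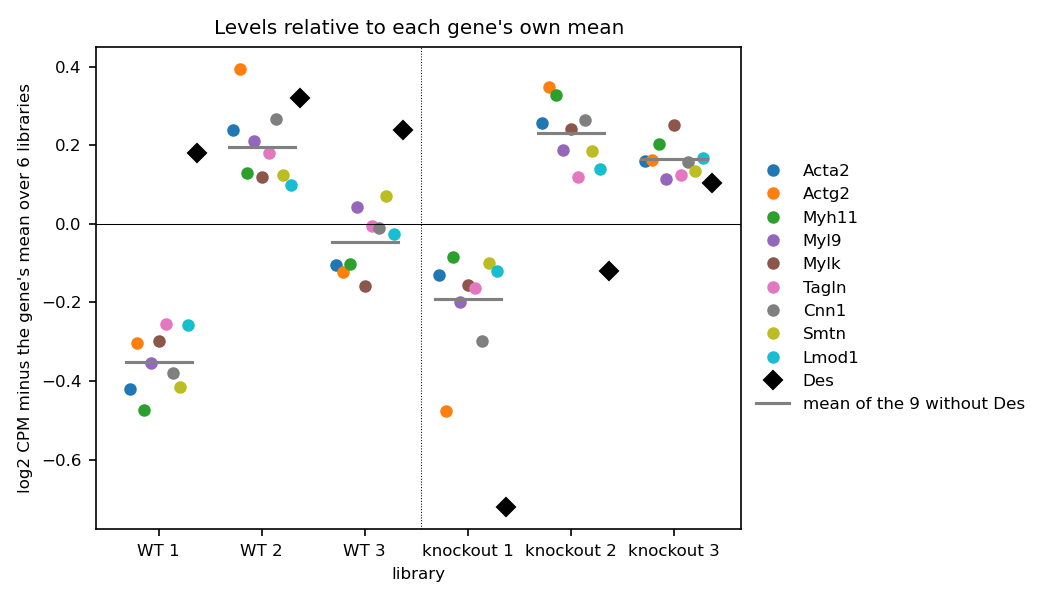
Log2 CPM of each gene minus its own mean over the 6 libraries (vertical axis), by library (horizontal axis), with WT left and knockout right of the dotted line. Circles are the 9 genes other than Des, grey bars their mean, and black diamonds Des. The circles move together from -0.35 on average in WT 1 to 0.23 in knockout 2. Des is above 0 in all 3 WT libraries and in knockout 3 (0.10), and below 0 in knockout 1 and 2.

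Of 3736 other genes with a mean of at least 50 CPM, the 5 with the profile nearest to the mean of the 10 were Gm8894, Slc25a23, Gm5526, Tmsb4x and Gm10080. Their root mean square differences from that mean over the 6 libraries were 0.0369, 0.0381, 0.0466, 0.0484 and 0.0552 on the log2 scale. By the same measure Myl9 (0.0424), Tagln (0.0519) and Cnn1 (0.0547) were as near, although every member is itself part of that mean. The other members lay further off, at 0.0736 for Lmod1, 0.0824 for Acta2, 0.0876 for Mylk and 0.0922 for Smtn. Myh11 was at 0.123, Actg2 at 0.143 and Des at 0.326. Placed among the genes outside the list, Acta2 came at 47, Myh11 at 281 and Actg2 at 549. The median over the genes compared was 0.208. Slc25a23 is a mitochondrial carrier, and Tmsb4x is thymosin beta-4, which binds actin monomers. Gm8894, Gm5526 and Gm10080 are annotated as processed pseudogenes. Of their 50-base stretches, 27.9%, 69.0% and 60.7% occur in Myl6, the essential light chain of smooth muscle myosin, so their estimated counts may in part be reads of Myl6. Myl6 itself had 842, 1186 and 1015 CPM in WT and 940.2, 1141 and 1078 CPM in the knockout, with WT 1 and knockout 1 again the lowest.

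The wider machinery was described with a list of 40 other genes of contraction, of which 38 were tested. In edgeR 0 passed at an adjusted p under 0.05, 3 were higher and 0 lower at an unadjusted p under 0.05 (3.95% and 2.01% of all genes tested), and 0 passed in DESeq2. Fold changes were above 0 for 27 and below 0 for 11, with a median of 0.06, beside 49.4% of all genes above 0 and a median of -0.0022. Those 3 were Myh10, given above, Ppp1r12b and Myocd.

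Myosin phosphatase, which relaxes muscle, had log2 fold changes above 0 for all 5 genes listed with it, from 0.17 ± 0.15 (SE) for the catalytic subunit Ppp1cb to 0.39 ± 0.15 for the targeting subunit Ppp1r12b. Ppp1r12b had 684, 984 and 741 CPM in WT 1, 2 and 3 and 947, 1139 and 1063 CPM in knockout 1, 2 and 3, where WT 2 lay above knockout 1 (edgeR unadjusted p = 0.0415, adjusted p = 0.830). The phosphatase inhibitor Ppp1r14a was at 0.21 ± 0.19 (SE), and 0 of the 5 passed. WT 1 was the lowest library for each of the 5, as it was for 8 of the 10 core genes. The fold changes of these 5 without WT 1 are not given here, so their shared direction may depend on that library.

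Of SRF and its coactivators, Srf had a log2 fold change of 0.09 ± 0.07 and Myocd, which encodes myocardin, 0.36 ± 0.15 (SE; edgeR unadjusted p = 0.0469, adjusted p = 0.831). Myocd stood at 216 CPM in WT 1, 188 in WT 2 and 152 in WT 3, against 211, 270.3 and 232 CPM in knockout 1, 2 and 3. WT 1 lay above knockout 1 here, and WT 1 was the highest of the WT libraries, unlike in the 9 contractile genes. The other coactivators, Mkl1 and Mkl2, were at 0.04 ± 0.07 and 0.10 ± 0.09 (SE).

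On the lower side the smallest p belonged to Tpm3 and Tpm4, tropomyosins that non-muscle cells also use, and Tmod3, which caps actin filaments. Tpm4 stood at 728 CPM in WT 1, 427 in WT 2 and 561 in WT 3, and its knockout libraries had 542, 348 and 484 CPM, a log2 fold change of -0.32 ± 0.23 (SE). Tpm3 was at -0.23 ± 0.17 and Tmod3 at -0.13 ± 0.15 (SE), and 0 of these 3 passed. The muscle tropomyosins Tpm1 and Tpm2 were at 0.06 ± 0.17 and 0.07 ± 0.21 (SE). Tpm4 was highest in WT 1 and lowest in knockout 2, where the mean of the 9 contractile genes was lowest and highest.

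**Figure D5:**
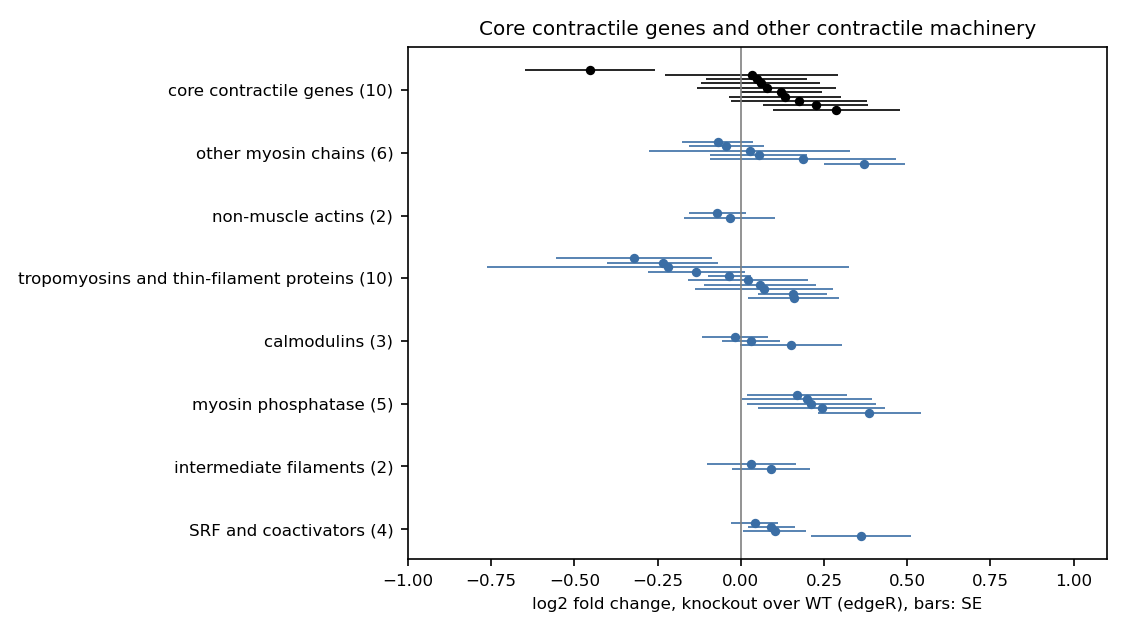
Log2 fold change, knockout over WT (horizontal axis, edgeR), with the SE as a bar, of the 10 core contractile genes (black) and 32 of the 38 other machinery genes tested (blue), by role, with the number of genes in brackets. Of the blue points 22 lie above 0 and 10 below, the 5 of myosin phosphatase all lie between 0.17 and 0.39, and the lowest black point, at -0.45, is Des.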

How the data were processed

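RNA of 6 libraries, 3 WT and 3 knockout by the sample titles, was made with an Illumina TruSeq RNA kit, per the labels' protocols. The authors deposited 1 table of expected counts per gene, not normalized. The submitters' processing notes name mm10, STAR 2.6 and DESeq2 without their roles. The sources used here do not give the tool or gene models of the counting. Columns were matched to samples by the sample code in their names, and 0 were left over. Expected counts were rounded, filtered with filterByExpr, scaled by TMM and tested over all genes in edgeR 4.0.16 (R 4.3.3) by its quasi-likelihood F test in the robust form, two-sided. Adjustment was by Benjamini-Hochberg and the threshold 0.05. Intervals of 95% use the moderated degrees of freedom.

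The members and lists were chosen with earlier results of these data known. All 10 members were named, with the 3 machinery genes of smallest p in each direction among those of at least 10 CPM, Srf and Myocd, the 5 genes of nearest profile, actin paralogs and overlapping genes. Vim, Synm, Tpm1, Tpm2, Myl6, Mkl1, Mkl2, Ppp1cb and Ppp1r14a were named after their values had been seen. A group of 6 machinery genes is in the list's counts and not reported by itself here. Transcripts and untranslated regions came from GENCODE M21 (GRCm38), with the best APPRIS principal transcript. Promoter windows and the miRNA came from RefSeq (GRCm38.p6), and 7 of 10 members matched a window.

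The other settings tried were scaling by DESeq2's size factors or by upper quartiles, no filter, a filter of 1 CPM in 3 or more samples, the Wald test of DESeq2 1.42.0, limma-voom 3.58.1 with sample weights, the replicate number as a block, an FDR of 0.1, thinning to the smallest library, and each library left out. Leaving out WT 1 and knockout 1 together was added after seeing the data. On simulated data for knockout against WT (16397 genes), the edgeR step found 34.3% of the 67 genes set to change 1.5-fold. It found 88.1% of the 67 at 2-fold and 90.9% of the 66 at 4-fold, and made 14 false calls. In the real data edgeR called 0 of 16654 genes, with a smallest adjusted p of 0.217. There the median SE on the log2 scale was 0.185 for the core contractile genes, against 0.136 over all genes. The simulated rates are therefore not the power to detect a change in the core contractile genes, which was not tested.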

Additional observations from a re-analysis of the deposited data

How the results depend on the processing

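In the 16 alternatives the number of the 10 genes called stayed at 0, and so did that of the machinery list. The number of genes with a fold change above 0 was 9 in every alternative that kept all libraries, and without each library in turn it ran from 4 (without WT 1) to 9. The median log2 fold change ran from -0.04 (without WT 1) to 0.23 (without WT 2). With scaling by upper quartiles the median of the 10 was 0.09, and that of all genes moved to -0.01. Signs turned only on leaving out a library. Over these, Actg2 ran from -0.14 (knockout 2 left out) to 0.26 (WT 2 left out), and leaving out WT 1, WT 3 or knockout 3 gave -0.11, -0.04 and -0.03. Cnn1 ran from -0.075 to 0.24, Myl9 from -0.085 to 0.18, Smtn from -0.018 to 0.23 and Tagln from -0.058 to 0.15, each lowest with WT 1 and highest with WT 2 left out. Leaving out knockout 2 gave -0.04 for Cnn1 and -0.02 for Myl9. The cause was not tested, beyond WT 1 being the lowest library for 8 of the 10 genes. Myh11, Acta2, Mylk, Lmod1 and Des kept their sign in every alternative.

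With the replicate block 0 of the 10 genes were called, and the log2 fold changes of Myh11 and Des were 0.30 ± 0.07 and -0.49 ± 0.16 (SE; edgeR adjusted p = 0.196 and 0.329). Their unadjusted edgeR p-values with the block were 0.00559 and 0.0290, that of Mylk was 0.0268, and the next smallest was 0.0614 for Acta2. The share of all genes with an unadjusted p under 0.05 in this setting is not given here. Deviations of same-numbered libraries correlated across genes at 0.32, 0.36 and -0.02 for replicates 1, 2 and 3. Replicates 1 and 2 thus correlated best with their own number, while WT 3 correlated best with knockout 1 (0.07). The labels name no pairs, and the main test did not take the numbers as pairs. Whether the libraries were handled in pairs is not known here. With 3 libraries a group, the widest interval, that of Actg2, ran from -0.59 to 0.66. At 3644 counts or more per gene and library, depth was not the limit.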
